A study of Mus musculus with 6 samples.

Results

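The genes described here are 29 astrocyte marker and function genes, each found once by its symbol among 55359 genes counted by RNA sequencing of the mouse habenula, a small epithalamic brain region. They are Gfap, Vim, S100b, Sox9, Fabp7, Slc1a2, Slc1a3, Slc4a4, Slc7a10, Atp1b2, Slc39a12, Aldh1l1, Glul, Aldoc, Ppp1r3c, Fgfr3, Ednrb, Ntsr2, Gpr37l1, Agt, Apoe, Clu, Htra1, Bcan, Chrdl1, Mfge8, Cldn10, Ttyh1 and F3. The study set 3 libraries labelled Tet2 cKO, a conditional knockout of the DNA dioxygenase gene Tet2, against 3 wild-type (WT) libraries, all from C57BL/6 mice aged 2 months. The sources used here name neither what drives the deletion nor the exons removed, and do not say which animals gave which library. P-values therefore cover the spread among these 6 libraries, which may be technical.

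Astrocytes are the glial cells that clear glutamate and potassium from around synapses, turn glutamate into glutamine for return to neurons, store glycogen, and secrete lipoproteins and matrix. Gfap and Vim form their intermediate filaments, Sox9 is a transcription factor that specifies and maintains the lineage, and Fabp7 is shared with radial glia, their developmental source. Slc1a2 and Slc1a3 encode their glutamate transporters, and Aldh1l1 is widely used to mark the whole population. Several of the genes are not exclusive to astrocytes: Vim, Clu and S100b are also expressed by ependymal cells, and Vim and Mfge8 by vascular cells.

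Tet2 itself, which checks the labels, stood at 4.47, 4.02 and 3.96 FPKM in libraries labelled Tet2 cKO, against 3.45, 3.46 and 3.71 FPKM in WT. FPKM is the deposited level, fragments scaled to the exonic length of the gene and to the counts of the library. The whole-gene level was thus not lower there: every library labelled Tet2 cKO lay above every WT library, a log2 difference of 0.22 (SE 0.0768; edgeR adjusted p = 0.9999). Levels of single exons were not analysed here. Library totals lay between 17441429 and 17917987 counts in libraries labelled Tet2 cKO and between 16089676 and 17743639 counts in WT. WT replicate 3 stood apart: it differed from each other WT library by a chi-square of 19.04 and 20.3 per gene, against 4.09 between WT replicates 1 and 2, and by 10.4 to 19.2 from the libraries labelled Tet2 cKO. Its mitochondrial genes took 7.66% of the counts, against 5.43% to 6.44% in the other 5 libraries. To a lesser degree Tet2 cKO replicate 1 stood off from its own group. It differed by 10.4 and 9.47 from Tet2 cKO replicates 2 and 3, against 4.72 between those, and by 8.55 from WT replicate 1. Results that WT replicate 3 turns or moves by over 1.5 times are given with and without it. Of 22 habenula neuron markers, 21 passed the filter on low values, among them Tac2, Gpr151 and Pou4f1 but not Chrna5. Of 16 thalamic and hippocampal neuron markers, 14 passed too, so passing does not set the habenula apart from these regions.

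The 29 astrocyte genes summed to nearly equal shares of the counts in both groups, and no single gene passed the test across all genes. Together they took 0.911%, 0.930% and 0.912% of the counts in libraries labelled Tet2 cKO and 0.923%, 0.922% and 0.953% in WT. This sum weighs most the genes with most counts, led by Glul, Apoe and Slc1a2 at means of 26012, 24449 and 22653 counts. In bulk RNA, fewer astrocytes and less RNA per astrocyte cannot be told apart. Of the 29 genes, 28 passed the filter on low values, a minimum mean of 1 FPKM, and the edgeR quasi-likelihood test called 0 of these 28 at a Benjamini-Hochberg adjusted p under 0.05, against a background of 0.0% of the 14539 genes tested. The log2 difference, Tet2 cKO minus WT, was above 0 for 15 of the genes (53.6%, where 49.1% of all tested genes lay above 0) and below 0 for 13. Its median was 0.02 (0.03 without WT replicate 3), against -0.0021 over all tested genes, and 23 of the 28 differed by less than 0.2 in either direction. The median standard error of these differences was 0.0852.

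Levels spanned more than the differences did. The lipoprotein gene Apoe was the most abundant at a mean of 657 FPKM over the 6 libraries, followed by the glutamine synthetase gene Glul at 395 FPKM, the glycolytic aldolase gene Aldoc at 262 FPKM and Atp1b2, a sodium pump subunit of astrocytes, at 176 FPKM. The least abundant gene tested was Sox9 at 6.24 FPKM, which is the 49.7th percentile of the tested genes by level, and the median of the 28 lay at the 89.5th percentile. Chrdl1, a secreted BMP antagonist that astrocytes use to mature synapses, did not pass the filter, with 62, 29 and 43 counts in libraries labelled Tet2 cKO and 61, 47 and 37 counts in WT.

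**Figure D1:**
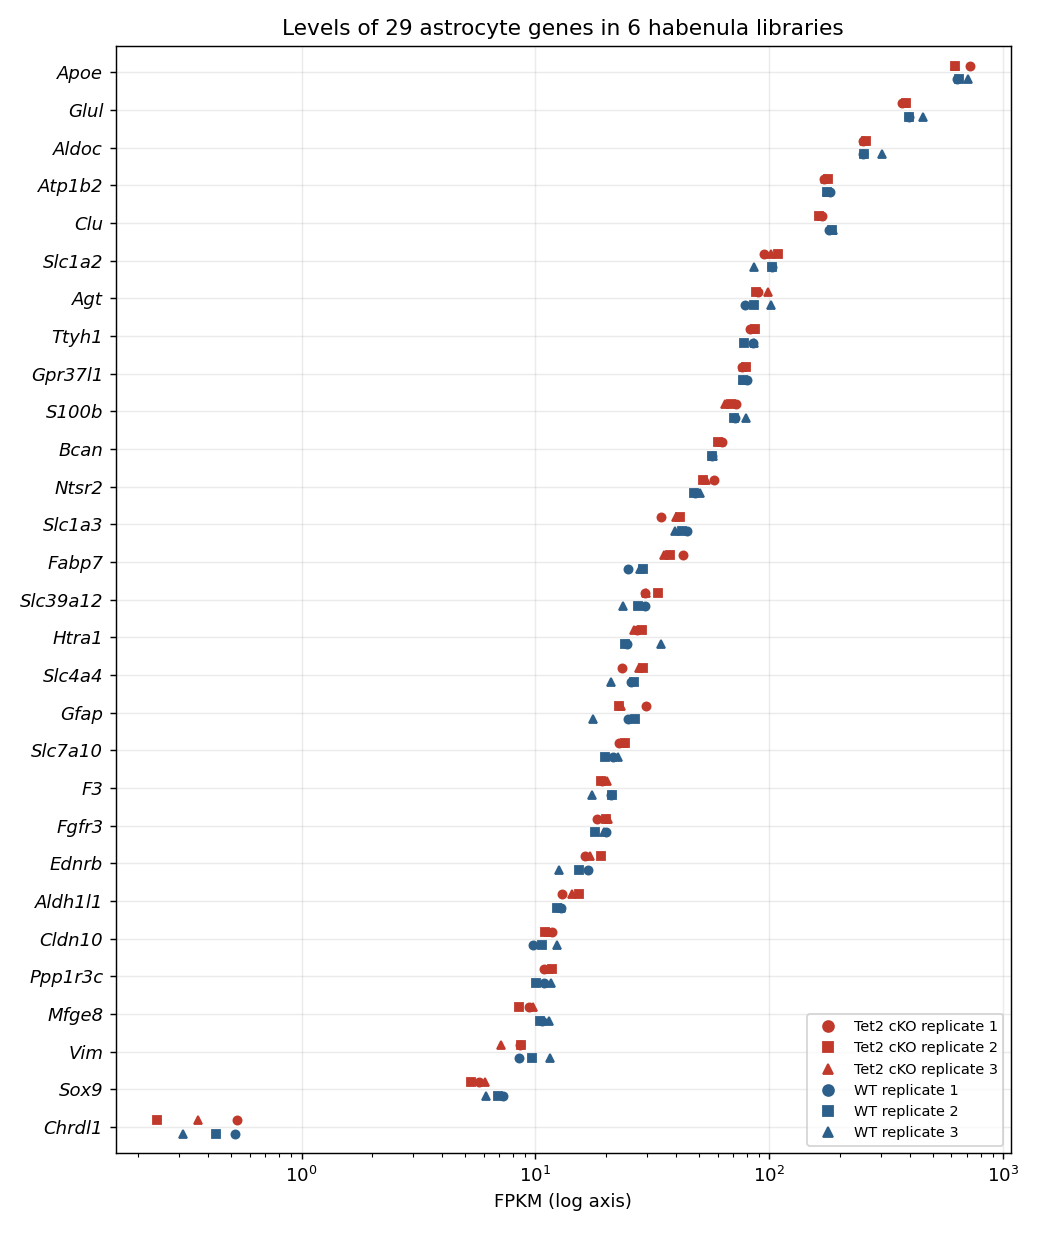
FPKM (log axis) of each of the 29 genes in the 3 libraries labelled Tet2 cKO (red, upper points of each row) and the 3 WT libraries (blue, lower points), with a marker shape per replicate. Genes are ordered by mean level, from Apoe at 657 FPKM to Chrdl1 below 1 FPKM; the Fabp7 groups lie apart, while for most genes the groups overlap.

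Fabp7, the brain fatty acid binding protein gene of radial glia and astrocytes, showed the largest difference among the 28 genes. Fabp7 (ENSMUSG00000019874, GRCm38 chromosome 10, 57784881 to 57788450, plus strand) stood at 42.9, 37.6 and 35.3 FPKM in libraries labelled Tet2 cKO, against 24.8, 28.9 and 27.9 FPKM in WT. Every library labelled Tet2 cKO lay above every WT library. The means were 38.6 ± 3.88 FPKM in libraries labelled Tet2 cKO and 27.2 ± 2.14 FPKM in WT (SD, n = 3 each), 1.41 times as high, with a log2 difference of 0.50 (95% interval 0.28 to 0.72). It had the 6th smallest p of all 14539 genes but did not pass over them (edgeR quasi-likelihood unadjusted p = 0.00052, adjusted p = 0.9999). Leaving out each library gave log2 differences of 0.42 to 0.56. Without the filter on low values the same test gave adjusted p = 0.00526, and DESeq2 gave adjusted p = 0.0554. In the other settings Fabp7 was further from passing. With the filterByExpr filter edgeR gave adjusted p = 0.936. On log2(FPKM + 1) and log2(FPKM + 0.1) limma gave adjusted p = 0.872 and 0.932. Of the fits leaving out 1 library, the smallest edgeR adjusted p was 0.154, without WT replicate 3.

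The other genes of identity, cytoskeleton and lineage lay the opposite way or did not separate. Sox9 (ENSMUSG00000000567, GRCm38 chromosome 11, 112782224 to 112787760, plus strand) stood at 5.71, 5.29 and 6.11 FPKM in libraries labelled Tet2 cKO, against 7.27, 6.91 and 6.17 FPKM in WT. Its groups did not overlap, though WT replicate 3 lay next to Tet2 cKO replicate 3. The log2 difference of Sox9 was -0.26 (95% interval -0.48 to -0.04; edgeR adjusted p = 0.9999), and -0.31 without WT replicate 3.

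Gfap stood at 29.6, 22.9 and 23.2 FPKM in libraries labelled Tet2 cKO, against 24.9, 26.7 and 17.7 FPKM in WT. The highest value belonged to Tet2 cKO replicate 1 and the lowest to WT replicate 3, and the other 4 libraries lay between them. Its pooled coefficient of variation within groups, 18.1%, was the largest of the 28 genes, against a counting error of 2.38%. The log2 difference of 0.12 (SE 0.150) turned to -0.030 without WT replicate 3 and to -0.006 without Tet2 cKO replicate 1.

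Vim stood at 8.62, 8.71 and 7.09 FPKM in libraries labelled Tet2 cKO, against 8.48, 9.64 and 11.6 FPKM in WT, so the groups overlapped. Its log2 difference of -0.29 (SE 0.127) was -0.15 without WT replicate 3, which held the highest value. S100b, a calcium-binding protein of astrocytes and ependyma, stood at 71.9, 68.3 and 64.4 FPKM in libraries labelled Tet2 cKO, against 71.4, 70.9 and 79.7 FPKM in WT, and differed by -0.13 (SE 0.0779), or by -0.06 without WT replicate 3.

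Of the genes of transmitter and ion transport, the main glutamate transporters were close to equal or pointed apart, and none passed. Slc1a2, encoding GLT-1, stood at 94.5, 109 and 101 FPKM in libraries labelled Tet2 cKO, against 102, 103 and 85.6 FPKM in WT. Slc1a3, encoding GLAST, stood at 34.4, 41.3 and 39.7 FPKM in libraries labelled Tet2 cKO, against 44.5, 42.3 and 39.5 FPKM in WT. Both pairs of groups overlapped. The log2 difference was 0.06 (SE 0.0909) for Slc1a2, turning to -0.014 without WT replicate 3, and -0.14 (SE 0.0858) for Slc1a3.

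Slc39a12, a zinc importer, stood at 29.5, 33.3 and 29.5 FPKM in libraries labelled Tet2 cKO, against 29.4, 27.3 and 23.7 FPKM in WT. Slc7a10, which exchanges D-serine and other small neutral amino acids, stood at 22.7, 24.2 and 23.8 FPKM in libraries labelled Tet2 cKO, against 21.4, 19.8 and 22.6 FPKM in WT. The groups of both did not overlap in FPKM but did after TMM scaling, with gaps between the nearest libraries of different groups that were small beside the range within each group. Their log2 differences were 0.19 (SE 0.0951) and 0.14 (SE 0.0822), and without WT replicate 3 that of Slc39a12 was 0.12. Exons of Slc7a10 overlap Lrp3 on the opposite strand. The bicarbonate cotransporter gene Slc4a4 differed by 0.12 (SE 0.107), and by 0.035 without WT replicate 3. Atp1b2 varied little, at 172, 177 and 173 FPKM in libraries labelled Tet2 cKO, against 181, 176 and 176 FPKM in WT, a difference of -0.04 (SE 0.0614).

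Among the 4 metabolic enzymes, Glul and Aldh1l1 leaned in opposite directions. Glul (ENSMUSG00000026473, GRCm38 chromosome 1, 153899944 to 153909723, plus strand) stood at 368, 383 and 379 FPKM in libraries labelled Tet2 cKO, against 393, 396 and 453 FPKM in WT. Its groups did not overlap, and WT replicate 3 stood well above the rest; the log2 difference was -0.15 (SE 0.0761) with it and -0.066 without it. Aldh1l1, a folate enzyme used as a pan-astrocyte marker, stood at 13.0, 15.4 and 14.3 FPKM in libraries labelled Tet2 cKO, against 12.9, 12.4 and 12.9 FPKM in WT, a log2 difference of 0.16 (SE 0.0832). The lowest library labelled Tet2 cKO was close to the highest WT library, and the groups overlapped after TMM scaling. Aldoc stood at 252, 260 and 254 FPKM in libraries labelled Tet2 cKO, against 252, 253 and 304 FPKM in WT, so that WT replicate 3 alone set its difference: -0.09 with it and 0.019 without it. Ppp1r3c, which targets a phosphatase to glycogen, differed by 0.05 (SE 0.0896), or by 0.12 without WT replicate 3.

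Among the 4 receptor genes, only Ntsr2 had groups that did not overlap. Ntsr2 (ENSMUSG00000020591, GRCm38 chromosome 12, 16653382 to 16660227, plus strand), encoding a neurotensin receptor enriched in astrocytes, stood at 57.7, 52.1 and 53.7 FPKM in libraries labelled Tet2 cKO, against 48.1, 47.7 and 50.7 FPKM in WT. The lowest library labelled Tet2 cKO lay just above the highest WT library. The log2 difference was 0.15 (95% interval -0.0029 to 0.30; edgeR adjusted p = 0.9999). The endothelin receptor gene Ednrb stood at 16.3, 18.97 and 17.0 FPKM in libraries labelled Tet2 cKO, against 16.7, 15.4 and 12.6 FPKM in WT, a difference of 0.22 (SE 0.111) that was 0.12 without WT replicate 3. The orphan receptor gene Gpr37l1 and the growth factor receptor gene Fgfr3 differed by -0.02 (SE 0.0628) and 0.02 (SE 0.0759), the second being 0.04 without WT replicate 3.

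The secreted and matrix proteins held 3 genes with groups that did not overlap. Clu (ENSMUSG00000022037, GRCm38 chromosome 14, 65968483 to 65981547, plus strand), encoding the lipoprotein and chaperone clusterin, stood at 167, 163 and 166 FPKM in libraries labelled Tet2 cKO, against 179, 185 and 187 FPKM in WT. Spread within both groups was small and the gap between them was wide beside it. The means of Clu were 165 ± 2.08 FPKM in libraries labelled Tet2 cKO and 184 ± 4.02 FPKM in WT (SD, n = 3 each), with a log2 difference of -0.16 (95% interval -0.29 to -0.02; edgeR adjusted p = 0.9999). Leaving out each library gave -0.17 to -0.14.

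Mfge8 (ENSMUSG00000030605, GRCm38 chromosome 7, 79133768 to 79149060, minus strand), encoding a secreted bridging protein for phagocytosis, stood at 9.37, 8.52 and 9.80 FPKM in libraries labelled Tet2 cKO, against 10.6, 10.4 and 11.5 FPKM in WT. All 3 libraries labelled Tet2 cKO were the lowest of the 6. The log2 difference was -0.24 (95% interval -0.43 to -0.05; edgeR adjusted p = 0.9999), and -0.19 without WT replicate 3. Bcan (ENSMUSG00000004892, GRCm38 chromosome 3, 87987531 to 88000230, minus strand), encoding the perineuronal proteoglycan brevican, stood at 62.8, 60.4 and 61.8 FPKM in libraries labelled Tet2 cKO, against 57.0, 57.0 and 57.3 FPKM in WT. The WT libraries were nearly identical, with a coefficient of variation of 0.334%. That is smaller than the counting error of Bcan, 1.54%, so it understates the spread to be expected. The log2 difference of Bcan was 0.10 (SE 0.0594).

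Apoe, the astrocytic cholesterol carrier, stood at 720, 620 and 619 FPKM in libraries labelled Tet2 cKO, against 630, 647 and 709 FPKM in WT. One library of each group was high and the others lay together, so the groups overlapped; the difference was -0.03 (SE 0.0821), turning to 0.03 without WT replicate 3. Agt, which encodes angiotensinogen and is stronger in astrocytes of the diencephalon and brainstem than of the cortex, stood at 89.1, 87.7 and 98.4 FPKM in libraries labelled Tet2 cKO, against 78.7, 85.6 and 101 FPKM in WT. Htra1, a secreted serine protease, stood at 27.1, 28.5 and 26.4 FPKM in libraries labelled Tet2 cKO, against 24.6, 24.0 and 34.5 FPKM in WT. In both genes WT replicate 3 was the highest of all 6 libraries and the other WT libraries were the lowest. Their differences of 0.04 (Agt) and -0.03 (Htra1) became 0.16 and 0.17 without WT replicate 3.

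None of the 3 membrane and junction genes had groups that lay apart. Ttyh1, a chloride channel family gene, Cldn10, a claudin, and F3, encoding tissue factor, differed by 0.03 (SE 0.0685), 0.04 (SE 0.101) and -0.04 (SE 0.0908). Without WT replicate 3 these were 0.07, 0.15 and -0.11.

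**Figure D2:**
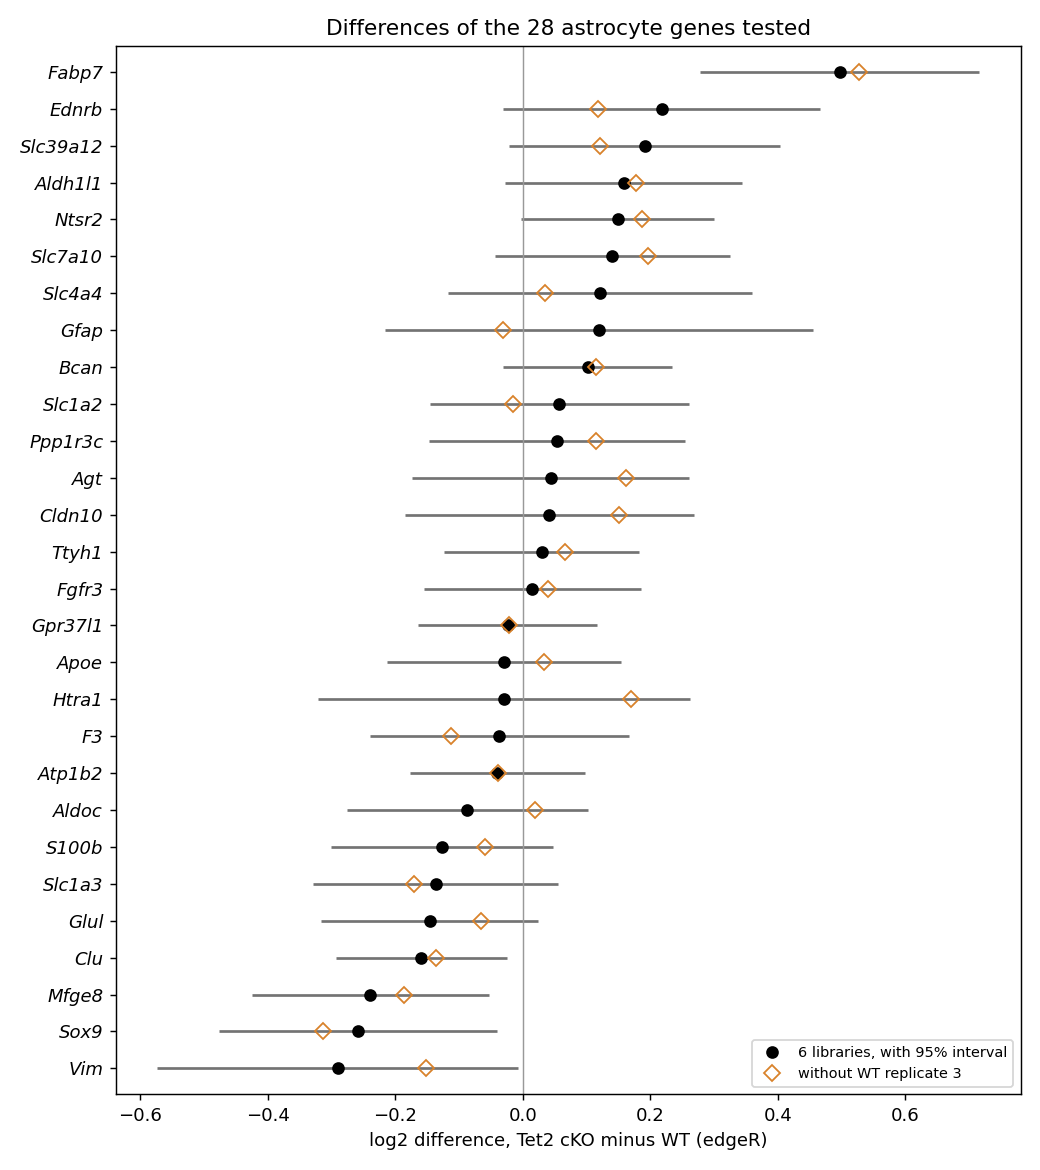
Log2 difference, Tet2 cKO minus WT, of the 28 genes tested (edgeR quasi-likelihood; points with 95% intervals) and the same without WT replicate 3 (open diamonds). Intervals include 0 for 23 genes and leave it out for 5, namely Fabp7 above 0 and Vim, Sox9, Mfge8 and Clu below.

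Groups that did not overlap were found among the astrocyte genes in both directions. In FPKM the groups did not overlap for 10 of 28 genes (35.7%), against a background of 6.8% of all tested genes and 5.44% of the 7312 genes at or above the level of Sox9. In libraries labelled Tet2 cKO, 6 of the 10 were higher, where 3.34% of all tested genes were, and 4 were lower, where 3.46% were. After TMM scaling there were 7 (25%), against 7.07% and 5.66%. These 7 were Sox9, Fabp7, Glul, Ntsr2, Clu, Bcan and Mfge8. At an unadjusted p under 0.05 there were 5 of 28 (17.9%), against 2.57% of all tested genes and 1.6% of those at or above the level of Sox9. Of these, 1 was higher (Fabp7; background 0.894%) and 4 were lower (Vim, Sox9, Clu and Mfge8; background 1.68%). Without WT replicate 3 there were 8 (28.6%), against a background of 5.95%, and 4 of the first 5 were among them, Vim being the exception. When Tet2 cKO replicates 1, 2 and 3 were dropped in turn, the count was 4, 2 and 3 of the 28. Over all 14539 tested genes it was then 465, 284 and 228. When WT replicates 1 and 2 were dropped in turn, it was 6 and 2 of the 28, against 351 and 428 of all tested genes. These genes share a cell type, are not independent of each other and were chosen with earlier results of these data known, so no test was made of their share against the background. With 3 libraries against 3 the smallest p an exact permutation test can give for a single gene is 0.1.

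Variation between libraries was not shared by all the genes. WT replicate 3 held the highest level for 9 genes (32.1%, where it was highest for 25.1% of all tested genes) and the lowest for 6 (21.4%, against 28.8%). Tet2 cKO replicate 2 held the highest level for 8 genes, where it was highest for 13.6% of all tested genes, and WT replicate 2 held the lowest for 8, where it was lowest for 14.9%. Glul, Aldoc, Htra1, Agt, Vim, S100b, Clu, Mfge8 and Cldn10 were highest in WT replicate 3, while Gfap, Slc1a2, Slc4a4, Slc39a12, Ednrb and F3 were lowest. The sign of the difference changed for 5 genes without WT replicate 3: Gfap, Slc1a2, Aldoc, Apoe and Htra1. The median coefficient of variation within groups was 7.71%, against a median counting error of 2.18%.

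**Figure D3:**
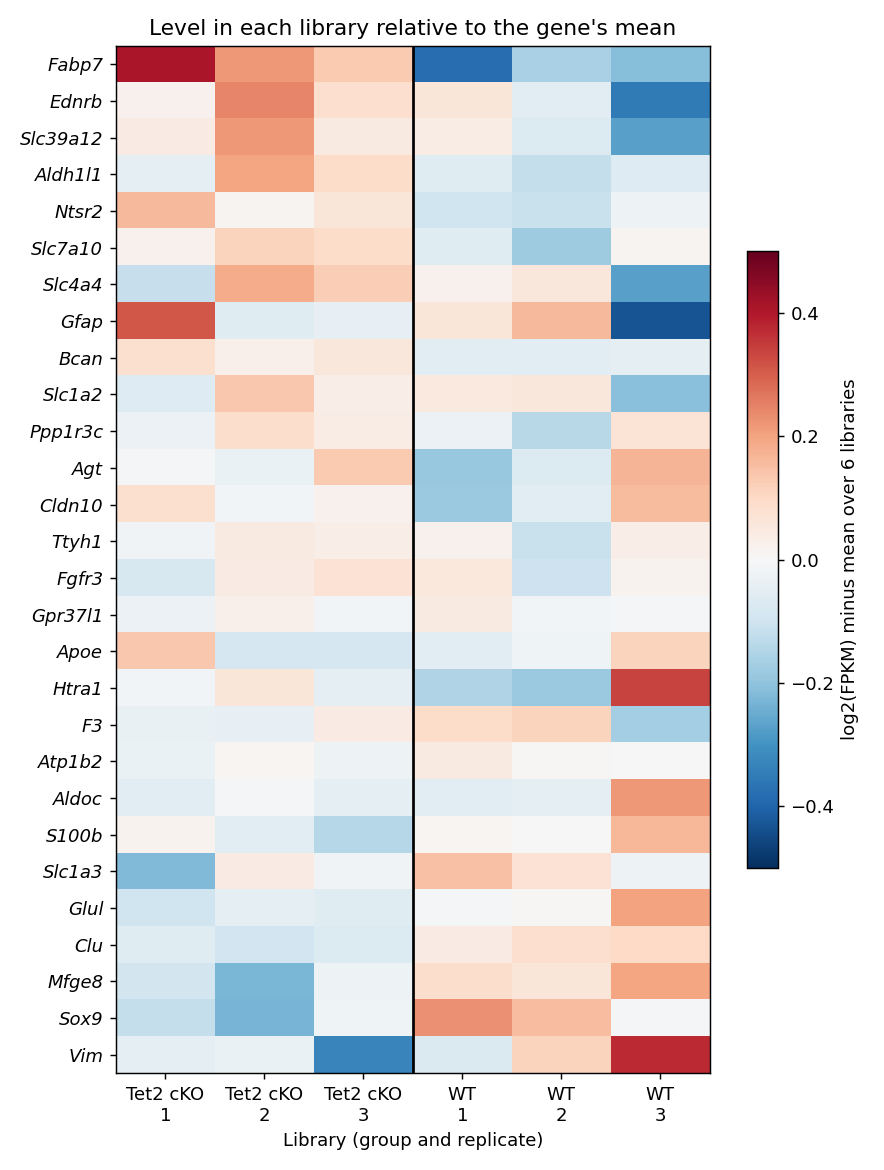
Log2(FPKM) of the 28 genes in each library minus the gene's mean over the 6 libraries, with libraries labelled Tet2 cKO left and WT right; genes run from the highest difference (Fabp7) to the lowest (Vim). Fabp7, at the top, and Mfge8 and Clu, near the bottom, have each group on its own side of the mean. WT replicate 3 sets the pattern of Htra1 and Aldoc, while that of Gfap rests on WT replicate 3 and Tet2 cKO replicate 1.

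Promoter sequences are shown for the genes whose groups lay apart in both scalings, because the TET dioxygenases act on methylated cytosine, which in mammals lies mostly in CpG dinucleotides. RefSeq windows on GRCm38.p6 were matched for 25 of the 29 genes, among them Fabp7, Glul, Ntsr2, Bcan and Mfge8; Sox9 and Clu were not matched. Each sequence runs 5′ to 3′ on the gene's strand and ends before the earlier of the RefSeq and GENCODE starts, with CpG dinucleotides in capitals. They are chr10:57784673-57784880 (plus strand, Fabp7), chr1:153899679-153899928 (plus, Glul), chr12:16653220-16653381 (plus, Ntsr2), chr3:88000357-88000606 (minus, Bcan) and chr7:79149061-79149310 (minus, Mfge8).
Fabp7: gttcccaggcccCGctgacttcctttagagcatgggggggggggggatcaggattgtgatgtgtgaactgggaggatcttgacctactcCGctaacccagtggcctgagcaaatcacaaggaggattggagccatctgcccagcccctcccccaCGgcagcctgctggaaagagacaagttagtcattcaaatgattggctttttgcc
Glul: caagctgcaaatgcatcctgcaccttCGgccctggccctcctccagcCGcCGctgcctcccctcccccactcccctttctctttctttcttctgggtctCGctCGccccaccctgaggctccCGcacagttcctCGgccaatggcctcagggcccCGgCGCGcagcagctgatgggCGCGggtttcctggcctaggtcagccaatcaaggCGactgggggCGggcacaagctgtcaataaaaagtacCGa
Ntsr2: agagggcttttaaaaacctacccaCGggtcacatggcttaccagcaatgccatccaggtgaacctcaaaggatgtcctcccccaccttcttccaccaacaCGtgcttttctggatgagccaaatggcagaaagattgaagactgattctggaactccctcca
Bcan: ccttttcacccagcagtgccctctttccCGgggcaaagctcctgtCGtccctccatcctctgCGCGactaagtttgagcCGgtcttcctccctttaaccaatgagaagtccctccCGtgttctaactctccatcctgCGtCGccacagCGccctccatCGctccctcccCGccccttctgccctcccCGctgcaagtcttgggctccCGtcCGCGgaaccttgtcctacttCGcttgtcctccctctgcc
Mfge8: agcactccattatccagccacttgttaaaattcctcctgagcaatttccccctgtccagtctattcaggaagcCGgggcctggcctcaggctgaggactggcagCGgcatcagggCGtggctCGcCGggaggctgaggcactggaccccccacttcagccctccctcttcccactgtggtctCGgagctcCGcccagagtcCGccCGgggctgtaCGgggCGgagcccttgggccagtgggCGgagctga
The sequences hold 3 CpG dinucleotides in 208 bases for Fabp7 and 2 in 162 bases for Ntsr2, against 15, 16 and 12 in 250 bases each for Glul, Bcan and Mfge8. Over the 250 bases before the RefSeq start, the 31 windows of the astrocyte genes held 0 (Agt) to 44 (1 of the windows of Slc4a4) CpG dinucleotides with a median of 8.0, against a median of 6.0 and quartiles of 2.0 and 16.0 over all 32851 windows. Those of the 5 genes shown held 4 (Fabp7), 4 (Ntsr2), 12 (Mfge8), 15 (Glul) and 16 (Bcan), all within these quartiles. DNA methylation was not measured in the data used here.

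Motif letters were counted in the same 250 bases on both strands, as a description. TTGGC, the core of the half-site of the nuclear factor I proteins that drive astrocyte genes, lay in 14 of the 31 windows (45.2%), among them those of Fabp7, Glul and Ntsr2, against 41.5% of all windows. ACAAT, the core letters bound by SOX proteins, lay in 4 (12.9%), including that of Fabp7, against 27.7%. TTCNNNGAA, the letters of a STAT site, lay in 4 (12.9%), including that of Ntsr2, against 7.02%. The Ntsr2 match is not within the bases printed above, which stop before the end of the 250. CCAAT and TATAAA lay in 14 (45.2%) and 5 (16.1%), against 33.8% and 12.4%; CCAAT overlaps the letters of a TTGGC site read on the other strand where both run together.

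Other astrocyte genes were read from a wider list of 73, which shares no gene with the 29. Of 70 tested, 0 passed the edgeR test, 39 lay above 0 and 31 below, and the median log2 difference was 0.02, equal to that of the 28 at this precision. The groups of 11 (15.7%) did not overlap, 7 higher and 4 lower in libraries labelled Tet2 cKO, against 6.8% of all tested genes. Aqp4, the water channel of astrocyte endfeet, stood at 62.5, 59.8 and 55.3 FPKM in libraries labelled Tet2 cKO, against 46.7, 43.5 and 28.8 FPKM in WT. Every library labelled Tet2 cKO lay above every WT library, and WT replicate 3 was far below the other WT libraries. The log2 difference of Aqp4 was 0.57 (SE 0.151), and 0.39 without WT replicate 3. Gja1, encoding the gap junction protein connexin 43, and the metallothionein genes Mt1 and Mt2 differed by 0.22 (SE 0.0728), 0.24 (SE 0.0742) and 0.31 (SE 0.107). Ezr, encoding the membrane-cytoskeleton linker ezrin, and Lcat, the cholesterol acyltransferase that acts on secreted lipoprotein, differed by -0.44 (SE 0.130) and -0.28 (SE 0.0935). These 6 genes were picked for the smallest p among the 70 tested. That the groups lay apart in all 6 largely follows from that choice.

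Transcription factors of astrocytes and radial glia were tested for 23 of 29 listed, with 0 called, 12 above 0 and 11 below, and a median of 0.0033 (-0.0043 without WT replicate 3). The groups of 2 factors (8.70%), Hes5 and Hes1, did not overlap, near the background of 6.8%. Hes5, an effector of Notch signalling in radial glia and astrocytes, stood at 3.91, 1.88 and 3.32 FPKM in libraries labelled Tet2 cKO, against 4.67, 5.38 and 6.33 FPKM in WT. Its relative Hes1 stood at 2.67, 1.97 and 2.44 FPKM in libraries labelled Tet2 cKO, against 3.04, 2.87 and 3.10 FPKM in WT. Both were lower in each library labelled Tet2 cKO than in any WT library. Hes5 rested on 93, 46 and 81 counts in libraries labelled Tet2 cKO, against 110, 118 and 153 counts in WT. Hes1 rested on 95, 72 and 89 counts, against 107, 94 and 112 counts in WT. The log2 differences were -0.86 (SE 0.249) for Hes5 and -0.35 (SE 0.169) for Hes1. The 95% interval of Hes1, -0.73 to 0.02, included 0, and neither gene passed (edgeR adjusted p = 0.9999 each). Klf15, Rfx4, Otx1 and Id1 differed by 0.27, 0.16, -0.22 and -0.14, with groups that overlapped; without WT replicate 3 Klf15 and Rfx4 were at 0.17 and 0.10.

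Genes that reactive astrocytes induce showed no common direction. Of 41 listed, 20 passed the filter and 21 did not, among them Lcn2, Cxcl10 and C3, whose means were below 1 FPKM in both groups, and Ugt1a1 had 0 counts in every library. The edgeR test called 0 of the 20, 8 lay above 0 and 12 below, and the median was -0.02, which turned to 0.06 without WT replicate 3. Groups did not overlap for 3 of the 20 (15.0%), against 6.8% of all tested genes. Timp1, an inhibitor of metalloproteinases, stood at 1.68, 2.58 and 1.83 FPKM in libraries labelled Tet2 cKO, against 0.72, 0.98 and 0.51 FPKM in WT. The matrix gene Tnc stood at 5.60, 7.17 and 5.68 FPKM in libraries labelled Tet2 cKO, against 5.27, 4.79 and 3.35 FPKM in WT. Both lay apart, as did Cd14 in the other direction, and the log2 differences were 1.46 (SE 0.347), 0.45 (SE 0.163) and -0.59 (SE 0.234). Timp1 rested on 26, 41 and 29 counts in libraries labelled Tet2 cKO, against 11, 14 and 8 counts in WT. Its WT mean was 0.737 FPKM, so it passed the filter only through the group where it was higher. Its log2 difference ran from 0.80 to 1.71 over the settings tried. Tnc was at 0.29 without WT replicate 3. H2-T23, Cd44 and S1pr3 differed by 0.27, 0.20 and -0.18 and overlapped.

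Markers of other cells that share some of these genes were set beside them. All 9 tested ependymal markers lay below 0, with a median of -0.48, and 7 of the 9 (77.8%) had groups that did not overlap, against 6.8% of all tested genes; Rarres2, Rsph1, Foxj1 and Ccdc153 differed by -0.52, -0.57, -0.41 and -0.43. Summed over the list, ependymal markers stood at 47.3 to 58.1 FPKM in libraries labelled Tet2 cKO and 64.2 to 80.8 FPKM in WT, highest in WT replicate 3, as were 9 of the 28 astrocyte genes (25.1% of all tested genes were). Summed choroid plexus markers stood at 175 to 834 FPKM in libraries labelled Tet2 cKO and 454 to 1415 FPKM in WT, with all 13 tested below 0. Most of this sum was Ttr, at means of 409 FPKM in libraries labelled Tet2 cKO and 860 FPKM in WT. Aqp1, Slc4a5 and Cldn2 had means under 1 FPKM in libraries labelled Tet2 cKO, so they passed the filter only through WT. The groups of 1 of the 13 (7.69%), Calml4, did not overlap; Calml4, Clic6, Folr1 and Otx2 differed by -1.07, -1.34, -1.21 and -0.42. No marker of these 2 lists was at 0 in all libraries. Ependymal cells express Vim, S100b and Clu, and the choroid plexus expresses Clu. The part of these cells in the differences of those genes, or of the other astrocyte genes such as Sox9, was not tested.

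Endothelial and mural markers summed to 152 to 181 FPKM in libraries labelled Tet2 cKO and 170 to 186 FPKM in WT, with 6 of 18 above 0 and a median of -0.04. Myelin markers had 12 of 14 above 0 and a median of 0.07, microglia markers had 10 of 14 above 0 and a median of 0.06, and oligodendrocyte precursor markers had 4 of 10 above 0 and a median of -0.05 (-0.0026 without WT replicate 3). Habenula neuron markers had 12 of 21 above 0 and a median of 0.03, which was -0.17 without WT replicate 3. Marker lists of thalamic and hippocampal neurons and of meningeal fibroblasts had medians of -0.05 and -0.04, and of -0.03 and -0.21 without WT replicate 3. No gene of any of these lists passed the edgeR test. Groups did not overlap for 1 of 14 myelin markers (7.14%) and 1 of 14 thalamic and hippocampal markers (7.14%), against the background of 6.8%. The second was Bcl11b, with means of 0.943 FPKM in libraries labelled Tet2 cKO and 1.25 FPKM in WT. Bcl11b thus passed the filter only through WT. Groups overlapped for all tested habenula, microglia, precursor, vascular and meningeal markers. No test of lists against each other was made.

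**Figure D4:**
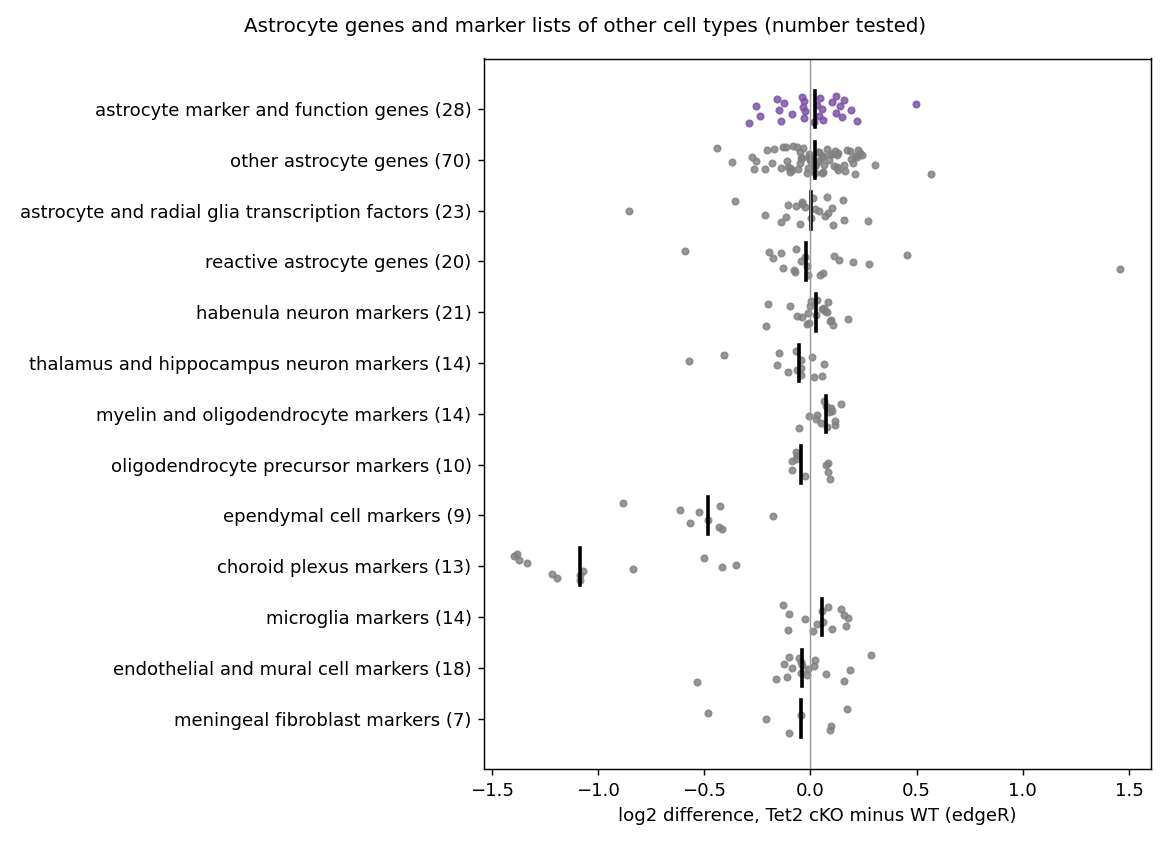
Log2 difference, Tet2 cKO minus WT, of each tested gene (points) in the astrocyte genes (purple) and 12 marker lists (grey), with the list median as a bar and the number tested in brackets. The astrocyte genes spread to both sides of 0 around a median of 0.02, while ependymal and choroid plexus markers lie below 0.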

How the data were processed

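The deposited table holds raw counts and FPKM for 55359 genes in 6 libraries, per the file headers. The counts are whole numbers. The authors' FPKM equal the count per kilobase of the deposited exonic gene size and scaled to the total count of the library, within 0.0051, in 100% of values. Per the submitters' processing notes the build was mm10 and the tools were HISAT2 2.0.1, SAMtools 0.1.19, cutadapt 1.9.1 and FastQC 0.10.1. Read counter, annotation release and strand setting: not given in the sources used here. Overlapping genes on opposite strands therefore cannot be told apart. That touches Slc1a2, Slc7a10, Aldh1l1, Glul, Fgfr3 and Ttyh1, and Aldh1l1 and Glul also overlap a gene on their own strand. Only 1494 of 52083 shared gene identifiers had the start and end of GENCODE M21, so positions are those of GENCODE M21 (GRCm38), joined by identifier.

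The 14539 genes whose mean level reached 1 FPKM were tested with edgeR 4.0.16 (quasi-likelihood, TMM, two-sided, no covariate) in R 4.3.3, with Benjamini-Hochberg adjustment over all of them. Levels and overlap of groups use the deposited FPKM, and intervals are 95% intervals. Alternatives were limma 3.58.1 on log2(FPKM + 1) and log2(FPKM + 0.1), DESeq2 1.42.0, other scalings and filters, a replicate block, and leaving out each library. The fit was tested on simulated data. The members and lists were chosen with earlier results of these data known, and the members were all named; the genes named with differences were the 6 of smallest p in each astrocyte list and the 4 of smallest p in the ependymal and choroid plexus lists, and the other lists are given by counts and medians. Further genes (Tac2, Gpr151, Pou4f1, Chrna5, Lcn2, Cxcl10, C3, Ugt1a1, Ttr, Aqp1, Slc4a5, Cldn2 and Bcl11b) were chosen after their values were seen.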

Additional observations from a re-analysis of the deposited data

How the results depend on the processing

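Of 28 astrocyte genes, 17 kept the sign of their difference under all 14 alternatives, among them Fabp7, Sox9, Clu, Mfge8, Ntsr2, Bcan and Glul. The other 11 changed sign when 1 library was left out, and none of them passed the test in any setting. Leaving out each library gave -0.0302 to 0.2313 for Gfap, -0.0145 to 0.1102 for Slc1a2, -0.1371 to 0.0186 for Aldoc, -0.0020 to 0.1157 for Ppp1r3c, -0.0349 to 0.0634 for Fgfr3 and -0.0323 to 0.1622 for Agt. It gave -0.1010 to 0.0330 for Apoe, -0.1277 to 0.1706 for Htra1, -0.0318 to 0.1514 for Cldn10, -0.0203 to 0.0659 for Ttyh1 and -0.1122 to 0.0075 for F3. The count of astrocyte genes called was 0 in the main test and 1 (Fabp7) without a filter on low values. Over all genes, the count called was 0 in the main test (374 at an unadjusted p under 0.05), 49 without a filter on low values, 2 with filterByExpr and 4 with DESeq2, and leaving out each library gave 0 to 3. The cause was not tested. The median log2 difference of the astrocyte genes was 0.022, and leaving out each library gave -0.011 (without WT replicate 2) to 0.034. With the replicate number as a block, 0 astrocyte genes and 0 genes overall were called, the unadjusted count was 346 overall and 3 of the 28, against 5 in the main test, and the median was 0.023. Same-numbered libraries correlated at -0.051, 0.174 and -0.084 in their deviations from the group means, and libraries of unlike number at -0.198 to 0.2. Deviations from a mean of 3 libraries are not independent, so these values cannot settle whether the numbers pair libraries. The least abundant gene tested, Sox9, had a mean of 448 counts, for a counting error of 4.72%; Chrdl1 was too low to test.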
